A study of Caenorhabditis elegans with 2 samples.

Results

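Peaks of the tagged Hox protein CEH-13 were described at 32 genes of embryonic morphogenesis and cell adhesion, out of 19973 protein-coding genes of the worm. The genes were listed by function and comprise 12 junction and polarity genes, 15 actomyosin genes and 5 guidance and adhesion genes. For each gene all listed peaks were taken whose summit lay from 2 kb upstream of its 5′ end to its far end, weak peaks included.

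The measurements are peak lists from ChIP-seq, in which chromatin was precipitated with an anti-GFP antibody and its DNA sequenced, from early embryos of Caenorhabditis elegans. There is 1 group, of 2 biological replicates. The labels' antibody field names ceh-13, while their description names anti-GFP. The embryos, of mixed sex and aged 2 hours, were obtained by egg bleaching from strain OP756. In this strain the insertion wgIs756 carries ceh-13 fused to TY1, EGFP and 3xFLAG, along with a functional unc-119 gene, in the unc-119(tm4063) background. Both replicates carry these alleles and come from this single line, and no untagged or other group was analysed here. Whole embryos were used, so the lists do not tell in which cells a peak arose, and they hold no expression from which a cell type could be checked. The pooled list and the list of each replicate held 30000 peaks, and 512 peaks made up the list that the authors thresholded by irreproducible discovery rate (IDR), a measure of agreement between replicates. Signal is a deposited score per peak whose scale is not stated. It ran from 23.7 to 720 with a median of 32.1 in the pooled list, and ranks within a list go from the highest signal down. Signals are therefore not compared between lists, and no mean over the replicates is given. The deposited q-value was under 0.05 for 1146 pooled peaks, 1380 of replicate 1 and 1082 of replicate 2. No read numbers are given, so depth is unknown, and the 95% intervals (Wilson) cover counting only.

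During morphogenesis of the worm embryo, epidermal cells spread over the embryo, seal at the ventral midline and then change shape so that the embryo elongates. Cadherin and catenins at apical junctions anchor the actin bundles of these cells, Rac and the WAVE complex build the branched actin used in migration, and kinases and a phosphatase set how strongly myosin pulls. Eph, semaphorin and integrin proteins guide cells or hold them to their neighbours and to the matrix. CEH-13, the Hox protein of the labial type, binds DNA through its homeodomain and is known for its part in the anterior organisation of the embryo.

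The 6 sequences that follow show what DNA lay under the strongest peaks of 6 of the genes, with at least 1 from each class. Each is the plus strand, 5′ to 3′, of the 151 bp centred on the pooled summit, read from the RefSeq copy of WBcel235, the assembly also called ce11. Capitals mark the letters CCGCAC on either strand, which read GTGCGG on the strand printed. The hmp-1, mel-11 and nmy-1 windows lie upstream of the gene, at chrV:11845084-11845234, chrII:9356825-9356975 and chrX:2907609-2907759. The unc-34 window at chrV:990251-990401 lies in coding exon sequence. The windows of sax-7 at chrIV:8066577-8066727 and vab-1 at chrII:4585620-4585770 lie in introns.
hmp-1: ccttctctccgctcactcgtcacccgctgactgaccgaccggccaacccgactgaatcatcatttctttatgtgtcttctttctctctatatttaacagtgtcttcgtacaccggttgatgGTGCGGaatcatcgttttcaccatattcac
mel-11: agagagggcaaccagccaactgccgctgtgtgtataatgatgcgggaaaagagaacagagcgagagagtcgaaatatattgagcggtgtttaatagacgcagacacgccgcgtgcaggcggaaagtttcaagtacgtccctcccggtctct
nmy-1: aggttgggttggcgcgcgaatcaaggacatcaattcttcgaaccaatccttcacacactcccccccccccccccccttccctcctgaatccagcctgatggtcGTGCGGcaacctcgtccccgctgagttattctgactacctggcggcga
unc-34: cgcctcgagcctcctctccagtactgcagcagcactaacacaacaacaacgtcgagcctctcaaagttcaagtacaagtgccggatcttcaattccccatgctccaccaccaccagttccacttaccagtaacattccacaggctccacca
sax-7: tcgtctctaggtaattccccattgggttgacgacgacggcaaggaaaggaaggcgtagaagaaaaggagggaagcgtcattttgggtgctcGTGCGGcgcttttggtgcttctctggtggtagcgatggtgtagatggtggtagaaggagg
vab-1: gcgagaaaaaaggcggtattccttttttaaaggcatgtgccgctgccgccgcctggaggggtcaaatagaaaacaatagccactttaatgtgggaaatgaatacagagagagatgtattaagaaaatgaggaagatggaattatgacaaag

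The letters CCGCAC were present in 3 of these 6 windows, those of hmp-1, nmy-1 and sax-7. The 6 are a selection and the pattern was taken from an earlier result of these same data, so this count is no measure of frequency. Counted in the 100 bp to each side of the summit, CCGCAC was in 4 of all 9 member peaks with q under 0.05. The share was 11.8% over all 1146 such peaks and 4.79% over all pooled peaks. The nmy-1 window also held a run of 17 identical bases beside its centre and had a GC content of 60.3%, the highest of the 6, while vab-1 had the lowest at 41.7%. The genome as a whole has 35.4%.

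All 32 genes had at least 1 peak in the pooled list, against 67.5% of all protein-coding genes, but few had a strong one. Only wve-1 and rga-2, both actomyosin genes, had an IDR peak, which is 6.25% of the genes (1.73 to 20.1) beside a background of 2.97%. A pooled peak with q under 0.05 was present at 9 genes, or 28.1% (15.6 to 45.4), beside 6.13% of all genes. These were hmp-1, vab-10 and hmr-1 among the junction genes, wve-1, rga-2, mel-11, nmy-1 and unc-34 among the actomyosin genes, and sax-7 among the guidance genes. Each of the 9 had exactly 1 such peak. In the list of replicate 1 the count was 9 genes beside 7.21% of all genes, and in replicate 2 it was 6 genes beside 5.77%. Only wve-1, rga-2 and hmr-1 had one in both replicates, and at hmr-1 the positions differed between replicates.

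The genes are long, and longer windows hold more peaks. The median window was 9.41 kb, against 4.03 kb over all protein-coding genes. Among genes of like window length, a pooled peak with q under 0.05 was present in 4.47% of all genes and 0 of 2 members under 5 kb. From 5 to 10 kb it was present in 7.68% of all genes and 3 of 15 members. From 10 to 20 kb the values were 14.3% and 3 of 9, and from 20 kb up they were 24.3% and 3 of 6. Both members with an IDR peak had windows of 5 to 10 kb, where 4% of all genes had one. Across the 32 genes, which share the same 2 libraries, the number of pooled peaks followed window length with a Spearman correlation of 0.81, and the strongest signal with one of 0.52.

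**Figure D1:**
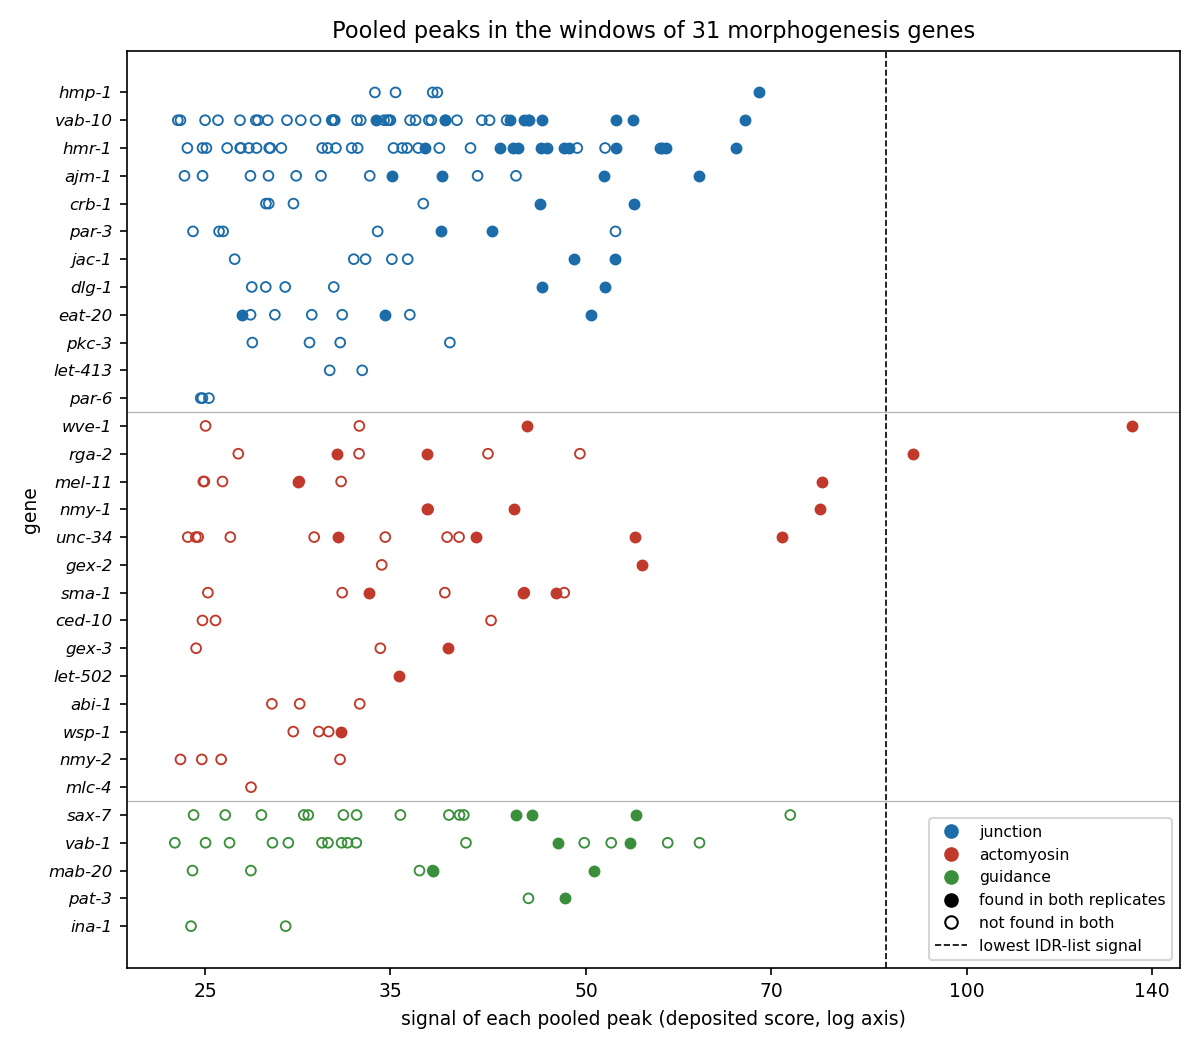
Signal of every pooled peak (deposited score, log axis) in the windows of 31 of the 32 genes, by class; filled points had a summit within 150 bp in both replicate lists, and the dashed line is the lowest signal of the IDR list, 86.2. The strongest peaks of wve-1 (134.9) and rga-2 (90.6) lie beyond the line, and most of the 243 peaks shown lie at low signal and are open.

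Among the genes of branched actin, wve-1 had the strongest peak of all 32. wve-1 encodes the WAVE protein, which activates the Arp2/3 complex. Its peak at chrI:11929988-11930407 had its summit 682 bp upstream of the 5′ end and a pooled signal of 134.9 (rank 234, q = 0.00136). The signal was 79.6 in replicate 1 (rank 260, q = 0.00131) and 58.7 in replicate 2 (rank 229, q = 0.00656), so the peak was of similar rank in both. The summit was nearer to the 5′ end of a neighbouring gene, R06C1.4, at 567 bp, so it cannot be assigned to wve-1 alone.

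The other proteins of the WAVE complex had weaker peaks. gex-2, the Sra1/CYFIP homologue, had its strongest pooled peak 314 bp upstream at a signal of 55.3 (rank 2053, q = 0.153), with 35.3 in replicate 1 and 18.3 in replicate 2. That summit also lay in the window of another protein-coding gene. gex-3, the Nap1/HEM homologue, reached 38.9 (rank 8299), at 108 bp upstream. abi-1, the Abl interactor, reached 33.1 (rank 13803) and had no peak in the list of replicate 2. The abi-1 summit lay within the protein-coding gene B0336.13. Thus the WAVE subunits ranged from the IDR list to the lower ranks of the pooled list.

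ced-10, the Rac GTPase that acts upstream of WAVE, differed between the replicates. Its peak 193 bp upstream had a signal of 40.9 in replicate 1 (rank 1229, q = 0.0387) and no match in replicate 2, and the pooled signal was 42.05 (rank 6238, q = 0.477). The pooled summit lay within the protein-coding gene tsg-101, so it cannot be assigned to ced-10 alone. wsp-1, which encodes WASP, reached a pooled signal of 32.03 (rank 15115). unc-34 encodes the Enabled homologue, which favours elongation of actin filaments. Its strongest peak, the coding exon window printed above, had a pooled signal of 71.4 (rank 825, q = 0.0152). This summit lay 7620 bp into the gene, 205 bp before the start of the annotated transcript Y50D4C.1f.1. The signal was 24.7 in replicate 1 (rank 9301, q = 0.569) and 37.9 in replicate 2 (rank 653, q = 0.00843). The peak therefore stood high in replicate 2 and among weak peaks in replicate 1.

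Among the contractility genes, rga-2 was the second member of the IDR list. rga-2 encodes a GTPase-activating protein that limits contraction of the epidermis. Its peak at chrI:11978617-11979036 lay 574 bp upstream with a pooled signal of 90.6 (rank 470, q = 0.00319). The signal was 53.0 in replicate 1 (rank 555, q = 0.00451) and 38.9 in replicate 2 (rank 591, q = 0.00423), again of similar rank in both. A tRNA gene and the non-coding RNA gene Y53C10A.18 lie at the same summit. Their part in the peak was not tested.

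mel-11 encodes the regulatory subunit of myosin phosphatase, which lowers contraction. Its peak 1630 bp upstream had a pooled signal of 76.8 (rank 683, q = 0.00366), with 45.8 in replicate 1 (rank 823, q = 0.00790) and 31.5 in replicate 2 (rank 1318, q = 0.0892). It was near the top of both lists, although only replicate 1 was under 0.05. nmy-1 encodes a heavy chain of nonmuscle myosin II. Its peak 1843 bp upstream had a pooled signal of 76.5 (rank 695, q = 0.00360), with 52.3 in replicate 1 (rank 575, q = 0.00435) and 19.1 in replicate 2 (rank 10661, q = 0.665). The nmy-1 peak thus rested on replicate 1.

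The other contractility genes described had no pooled peak with q under 0.05. let-502, the kinase that opposes mel-11, had a single pooled peak, of signal 35.6 (rank 11125), found in both replicates. The 5′ end nearest to this summit was that of mlst-8, 472 bp away. sma-1, the beta-heavy spectrin needed for elongation, reached 48.0 (rank 3692). nmy-2, the other nonmuscle myosin heavy chain, reached 31.95 (rank 15223), and mlc-4, the regulatory light chain, reached 27.2 (rank 22630) with no peak in the list of replicate 2. The nmy-2 summit was nearer to the 5′ end of T22C1.1, at 179 bp, and the mlc-4 summit also lay in the window of another protein-coding gene. Within the contractility genes the strongest peaks thus lay at rga-2, mel-11 and nmy-1, and those of the kinase and the light chain were weak.

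Among the proteins of the adherens junction, hmp-1 and hmr-1 had a peak with q under 0.05. hmp-1 encodes alpha-catenin, which links the cadherin complex to actin. Its peak 712 bp upstream had a pooled signal of 68.4 (rank 925, q = 0.0319), with 28.7 in replicate 1 (rank 5338, q = 0.383) and 38.4 in replicate 2 (rank 610, q = 0.00902). It lay within the non-coding RNA gene R13H4.11 and also in the window of another protein-coding gene. jac-1, the p120 catenin, reached 52.7 (rank 2499, q = 0.204).

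hmr-1 encodes the classical cadherin and, with a window of 60.9 kb, held 37 pooled peaks. The strongest, at chrI:11086240-11086659, lay in an intron 48217 bp from the 5′ end, 1382 bp past the start of the annotated transcript W02B9.1d.1. Its pooled signal was 65.7 (rank 1049, q = 0.0405), with 41.5 in replicate 1 (rank 1157, q = 0.0333) and 24.1 in replicate 2 (rank 4525, q = 0.388). In replicate 1, 3 hmr-1 peaks had q under 0.05, with signals of 44.2, 41.5 and 40.4, and all of them lay in introns. In replicate 2 a different peak, 42559 bp from the 5′ end, had a signal of 43.0 (rank 436, q = 0.00344). The pooled peak there, of signal 48.5, had a weak match in replicate 1, 122 bp from its summit, with a signal of 21.6 (q = 0.707). Of the 37 pooled peaks, 13 were found in both replicates, the most of any of the genes.

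vab-10 encodes a spectraplakin of the hemidesmosome-like attachments between epidermis and muscle, and it held the most pooled peaks, 40, in 59.6 kb. Its strongest lay in an intron, 13818 bp from the 5′ end, at chrI:11790963-11791382, with a pooled signal of 66.7 (rank 1003, q = 0.0394). The signal was 33.96 in replicate 1 (rank 2707, q = 0.174) and 22.8 in replicate 2 (rank 5651, q = 0.458), so neither replicate alone was under the threshold. Of its 40 peaks, 10 were found in both replicates.

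The apical junction genes ajm-1 and dlg-1 had no pooled peak with q under 0.05. ajm-1 encodes a coiled-coil protein of the junction. Its strongest peak, in an intron, had a pooled signal of 61.4 (rank 1362, q = 0.0716), with 43.6 in replicate 1 (rank 975, q = 0.0251) and 22.8 in replicate 2 (rank 5595, q = 0.455). It lay at tRNA genes within the intron, whose part in it was not tested. dlg-1, the Discs large scaffold that binds AJM-1, reached 51.7 (rank 2685), and let-413, the Scribble homologue, reached 33.3 (rank 13635).

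No polarity gene had a peak with q under 0.05 in any list. The Crumbs homologue crb-1 reached 54.6 (rank 2160), the PDZ scaffold par-3 reached 52.7 (rank 2492) and the Crumbs-related eat-20 reached 50.4 (rank 3003). The atypical protein kinase C gene pkc-3 reached 39.0 (rank 8206), at a summit within the protein-coding gene prdx-2. Its partner par-6 had the weakest best peak of the 32 genes, at 25.2 (rank 26649). The strongest pooled peak of par-3 counted as found in neither replicate, as did those of let-413 and par-6. For par-3 the strongest peak of replicate 1 lay 174 bp from that summit, with a signal of 39.4 (rank 1443, q = 0.0537). For par-6 the nearest summit of replicate 1 was 181 bp away, and for let-413 it was 1845 bp away. The par-3 and par-6 summits of replicate 1 thus lay just beyond the 150 bp used for matching. In replicate 2 the nearest summits were 321, 529 and 896 bp away for par-3, par-6 and let-413.

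Among the guidance and adhesion genes, sax-7 had the only pooled peak with q under 0.05. sax-7 encodes the L1CAM homologue, a cell adhesion protein. Its peak, in an intron 3993 bp into the gene and 213 bp before the start of the transcript C18F3.2a.1, had a pooled signal of 72.5 (rank 795, q = 0.0145). In replicate 2 the signal was 44.1 (rank 400, q = 0.00375), but in replicate 1 the nearest summit was 314 bp away, so the peak counted as found in replicate 2 only.

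vab-1 encodes the Eph receptor and stood higher in replicate 1. Its strongest pooled peak, in the intron printed above, had a signal of 61.4 (rank 1360, q = 0.0717). In replicate 1 it had 44.0 (rank 935, q = 0.0198), and 2 other vab-1 peaks also had q under 0.05, with signals of 44.5 and 42.5. No vab-1 peak of replicate 2 did, where the best signal was 23.8 (rank 4735, q = 0.402).

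mab-20, the semaphorin 2 ligand, reached a pooled signal of 50.8 in an exon (rank 2936, q = 0.245), with 26.6 in replicate 1 (rank 7127) and 21.8 in replicate 2 (rank 6740). Its strongest peak was at the same place in all 3 lists. The integrin genes pat-3, the beta subunit, and ina-1, an alpha subunit, reached 48.1 (rank 3680) and 28.9 (rank 19582). The pat-3 summit was nearer to the 5′ end of ccdc-47 than to that of pat-3.

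**Figure D2:**
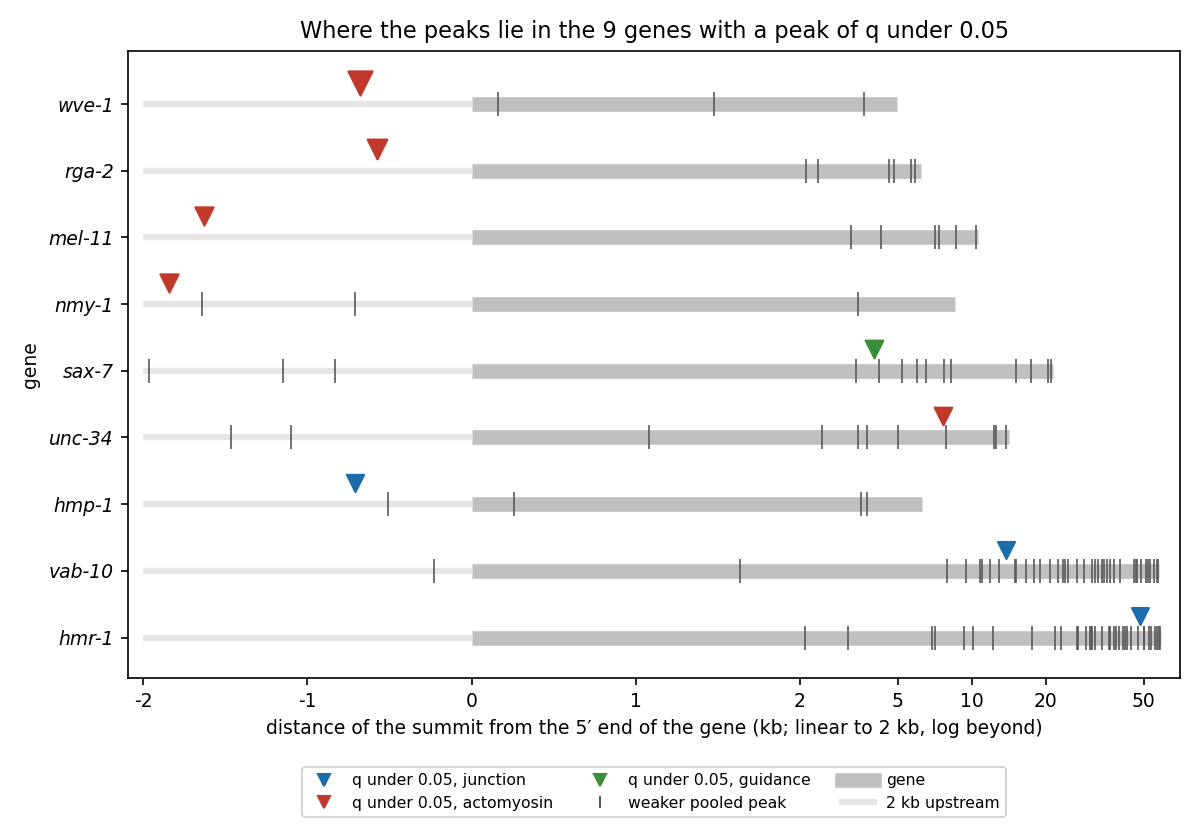
Distance of each pooled summit from the 5′ end (kb, linear to 2 kb and log beyond) in the 9 genes with a peak of q under 0.05; triangles are those peaks, coloured by class, and ticks are weaker peaks. The triangles of wve-1, rga-2, mel-11, nmy-1 and hmp-1 lie upstream of the gene, and the other 4 lie inside it.

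Set side by side, the classes differed little in how strong their best peaks were. The median of the strongest pooled signal was 52.7 over the junction genes (25.2 to 68.4), 48.0 over the actomyosin genes (27.2 to 134.9) and 50.8 over the guidance genes (28.9 to 72.5), so the ranges overlapped. Median windows were 14.0, 8.2 and 8.9 kb in the same order, so the classes were not matched for window length. The median over all 32 was 52.2, against 37.8 over all protein-coding genes with a pooled peak, whose windows are shorter. A pooled peak with q under 0.05 was present at 3 of 12 junction, 5 of 15 actomyosin and 1 of 5 guidance genes. Genes are not replicates, and no test between the classes was made.

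The windows of the 32 genes held 251 pooled peaks, 138 in junction, 71 in actomyosin and 42 in guidance genes, and no peak lay in the windows of more than 1 of the 32. This is 5.28 peaks per 10 kb, against 3.32 in the 50 kb to each side, 3.16 in the windows of all protein-coding genes and 2.99 over the genome. The density was above that of the flanks at 27 of the 32 genes. By class it was 5.23 in junction genes (flanks 2.96), 4.92 in actomyosin genes (flanks 3.66) and 6.25 in guidance genes (flanks 3.18). Most junction peaks lay at hmr-1 (37) and vab-10 (40), and most guidance peaks at vab-1 (17) and sax-7 (15). The order of the class densities thus depends on these long genes. The 12 junction genes were each denser than their flanks, as were 11 of 15 actomyosin and 4 of 5 guidance genes. The exceptions were let-502, mlc-4, nmy-1, gex-2 and pat-3.

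The separate replicates gave like densities. Replicate 1 had 4.92 peaks per 10 kb in the windows and 3.16 in the flanks, with 26 of 32 genes denser, and replicate 2 had 4.90 and 3.27, with 25 of 32 denser. The guidance genes varied most between the lists, with 6.40 in replicate 1 and 4.91 in replicate 2. Dense windows were those of rga-2, with 8.52 pooled peaks per 10 kb, dlg-1 (8.28) and vab-1 (8.11), and the lowest density was that of let-502, at 1.23. Within each class of window length the members also held more peaks per 10 kb than all genes, from 4.55 against 3.55 at 10 to 20 kb to 5.64 against 3.55 at 20 kb and longer. Of the bases in the windows of the 32 genes 37.1% were G or C, against 35.4% in their flanks and 35.8% in the windows of all protein-coding genes. Its part in the density was not tested. Most of these peaks are weak, with a median pooled signal of 33.7.

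**Figure D3:**
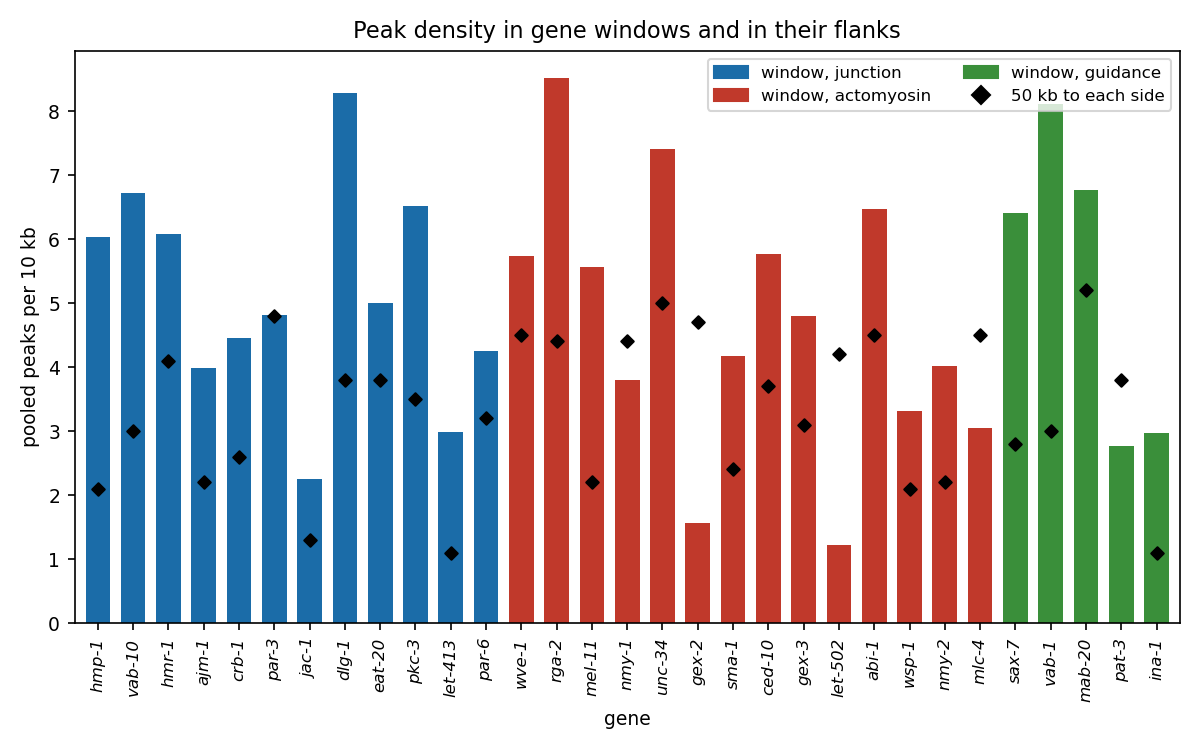
Pooled peaks per 10 kb in the windows of 31 of the 32 genes (bars, coloured by class) and in the 50 kb to each side (diamonds). Bars run from 1.23 at let-502 to 8.52 at rga-2, and 26 of the 31 exceed their diamond.

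Fewer of the weaker peaks were found in both replicates, at these genes and over the genome. A pooled peak was counted as found when a replicate summit lay within 150 bp, a distance that takes in 8.81% of the genome around the summits of replicate 1 and 8.77% around those of replicate 2. The pooled list was made from the same reads as the replicate lists, so the match is not independent. Of the 251 peaks, 71 were found in both replicates (28.3%, 23.1 to 34.2), against 26.9% of all pooled peaks, and 29 were found in neither. Replicate 1 held a match for 65.3% of them and replicate 2 for 51.4%. The share was 28.3% for junction (21.4 to 36.3), 33.8% for actomyosin (23.9 to 45.4) and 19.0% for guidance peaks (9.98 to 33.3), with overlapping intervals. The guidance peaks were split most unevenly, with 76.2% matched in replicate 1 and 31.0% in replicate 2, against 61.97% in each for the actomyosin peaks. Of the 42 guidance peaks, vab-1 held 17 (14 matched in replicate 1, 4 in replicate 2) and sax-7 held 15 (11 and 5). Of the 138 junction peaks, hmr-1 held 37 and vab-10 held 40. The shares of these 2 classes thus rest mostly on 2 genes each, and the intervals treat peaks of 1 gene as independent.

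From rank 513 to 1146, 6 of 7 peaks of these genes were found in both replicates, against 89.4% of all peaks. Between 1147 and 5000 it was 34 of 45 (75.6%) against 68.8%, and from 5001 to 10000 it was 18 of 45 (40%) against 44.3%. Beyond rank 20000 it was 2 of 70, against 3.47%. From rank 10001 to 20000 it was 9 of 82 (10.98%, 5.88 to 19.6) against 17.9%. In each of these rank classes the interval at these genes took in the share of all peaks.

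**Figure D4:**
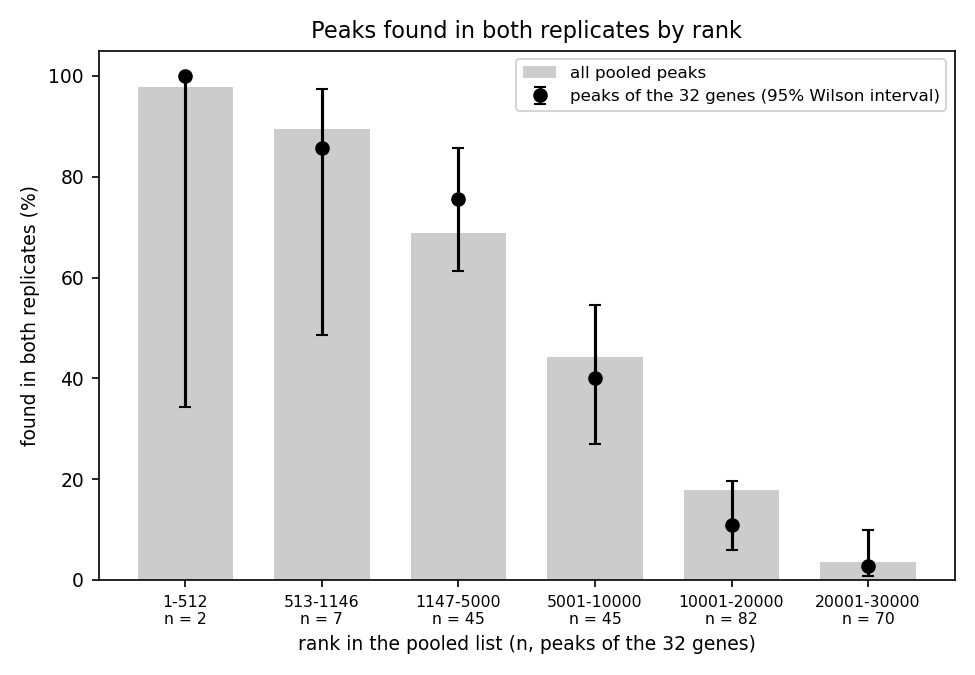
Share of pooled peaks (%) found within 150 bp in both replicate lists, by rank in the pooled list, for all pooled peaks (grey bars) and for the 251 peaks of the 32 genes (points, 95% Wilson interval). The share falls from 97.9% of all peaks at ranks 1 to 512 to 3.47% at ranks 20001 to 30000, and the points follow the bars.

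The strongest peak of a gene was seldom at the same place in all 3 lists. Of the 30 genes with a peak in all 3 lists, both replicates had their strongest peak at the pooled strongest in 5 (16.7%), namely let-502, mel-11, rga-2, wve-1 and mab-20. The share was 26.9% over all genes with a peak in all 3 lists, and 21.3% over those with windows of at least 5 kb. Among genes with a pooled peak of q under 0.05 it was 3 of 9 members, against 924 of 1220 (75.7%) over all genes. These sets were not matched for window length or rank. Windows under 5 kb made up 605 of the 1225 genes with such a peak, and 0 of the 9 members. Of the 9 member peaks, 7 ranked from 513 to 1146, below the IDR list. The pooled strongest peak itself was found in both replicates at 20 of the 32 genes (62.5%), against 39.9% of all protein-coding genes that have a pooled peak and 46.6% of those with windows of at least 5 kb. These shares were not matched for signal, and the members' strongest peaks had the higher median (52.2 against 37.8). Among genes with a pooled peak of q under 0.05, the share was 88.9% of the 9 members, against 94.6% over all genes. Across the 30 genes the strongest signals in the replicates had a Spearman correlation of 0.54. The replicates had their strongest peaks at the same place in only 5 of these 30, so 0.54 mostly compares different peaks of a gene. The strongest pooled signal also followed window length, with a correlation of 0.52, and the 0.54 was not adjusted for it. Across the 71 peaks found in both replicates the correlation was 0.05, against 0.30 over the 8075 such peaks of the genome. These points share the same 2 libraries and the same control. The 71 peaks and the 8075 were not matched for rank. Of the 71, 2 ranked from 1 to 512, where 97.9% of all 512 peaks were found in both.

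**Figure D5:**
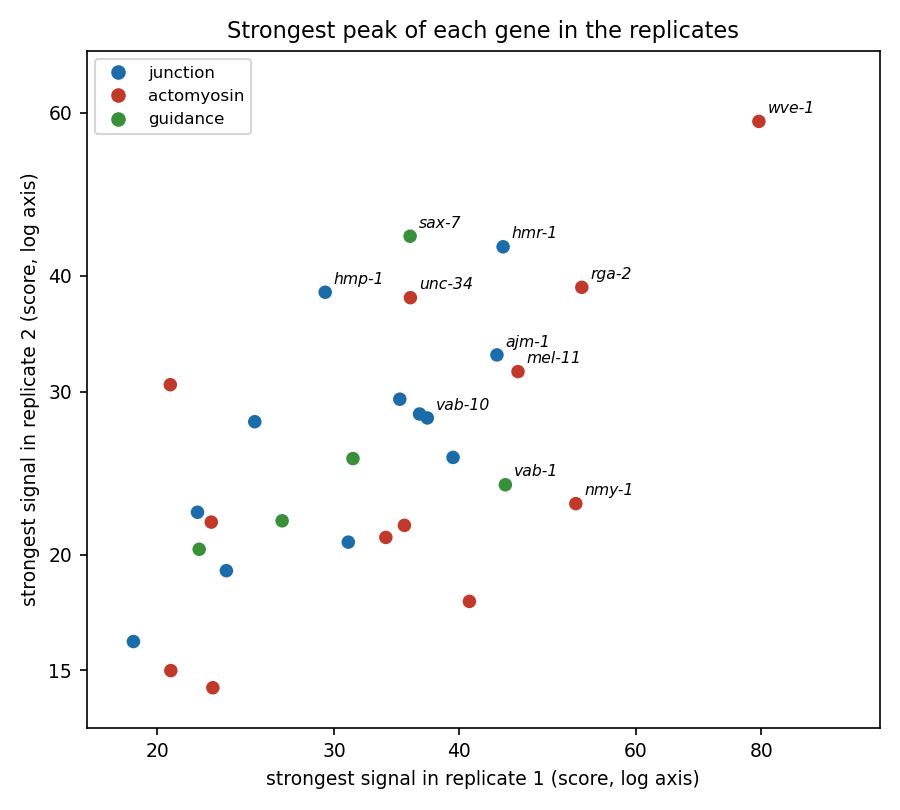
Strongest signal of each gene in replicate 1 against that in replicate 2 (deposited scores, log axes), for 29 genes with a peak in both lists, coloured by class. For most genes the strongest peak lay at a different place in each replicate. wve-1 is the highest in both (79.6 and 58.7), while nmy-1 (52.3) and vab-1 (44.5) are high in replicate 1 only.

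Most summits lay inside the genes, which make up most of these long windows. Of the 251 summits, 45 (17.9%) were upstream, 81 (32.3%) in exons and 125 (49.8%) in introns, against 13.5%, 32.5% and 54.0% of the bases of these windows. Over the windows of all protein-coding genes 38.7%, 29.7% and 31.6% of the summits lay in these places, against 38.3%, 28.6% and 33.1% of the bases. Of the 54 peaks of rank 5000 or better, 13 (24.1%) were upstream, 11 (20.4%) in exons and 30 (55.6%) in introns, beside 46.8%, 23.3% and 29.9% over all protein-coding genes at these ranks. Within 250 bp of an annotated transcript start of the gene lay 26 peaks (10.4%), where 7.63% of the bases lie, and over all genes it was 14.8% of peaks and 12.05% of bases. The actomyosin genes had 29.6% of their peaks upstream, against 20.8% of their bases, and the junction genes 11.6% against 9.10%. For 147 of the 251 the nearest protein-coding 5′ end was that of the gene itself. The share over all protein-coding genes is not given, so this count cannot be read as high or low. Genes for tRNA or other small RNAs lay within 500 bp of 4 of the peaks (1.59%), at rga-2, ajm-1 and vab-10, against 2.84% of all pooled peaks.

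Short sequence patterns were counted on both strands in the 100 bp to each side of a summit. The Hox and cofactor composite TGATNNAT was in 11.6% of the 251 windows and 11.98% of all pooled windows, and the homeodomain core TAATTA in 6.77% and 7.53%. GGGCGG was in 6.37% and 6.75%, and CCGCAC, a pattern taken from an earlier result of these same data, in 4.38% and 4.79%. No pair of the 4 patterns differed by as much as 1 percentage point. Among the 9 peaks with q under 0.05, CCGCAC was in 4, those of hmp-1, nmy-1, rga-2 and sax-7, beside 11.8% of all 1146 such peaks. TGATNNAT was in that of wve-1 alone, beside 8.99%. TAATTA and GGGCGG were in none of the 9, beside 4.80% and 14.6%. The median share of G and C was 41.8% over the 251 windows and 40.3% over all pooled windows. For peaks with q under 0.05 it was 50.2% against 45.8%, and its part in these shares was not tested.

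Other genes of the same processes were counted in the same way. Of 76 further genes of junctions, actin, contractility and guidance, 75 were matched, with a median window of 9.67 kb. An IDR peak was present at 3 of them (4%) and a pooled peak with q under 0.05 at 10 (13.3%), while 69 had any pooled peak. Over all protein-coding genes the shares were 2.97%, 6.13% and 67.5%, and among those with windows of 5 to 10 kb they were 4%, 7.68% and 81.1%. With windows under 5 kb they were 2.2%, 4.47% and 59.5%. From 10 to 20 kb they were 6.26%, 14.3% and 94.6%, and from 20 kb up they were 7.6%, 24.3% and 98.9%. The 75 genes span all these lengths and were not matched for window length. Whether their shares exceed what their lengths give was not tested. The strongest was at hmp-2, which encodes the beta-catenin that joins cadherin to alpha-catenin, with a signal of 137.8 (rank 222, q = 0.00136). The others were the formin gene cyk-1 (123.4, rank 280) and the beta-spectrin gene unc-70 (105.9, rank 368), and at both a small RNA gene lay within 500 bp of the summit.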

How the data were processed

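The deposited lists come from 2 biological replicates in 1 group, numbered by the labels' biological replicate number. Peaks were called by the authors on the alignment of each replicate and on both together, always against 1 shared control alignment, and the IDR list was derived from these lists, per the deposited file descriptions. Which aligner, peak caller and IDR threshold were used is not given in the sources used here. The control was not analysed here. The deposited signal of a peak is a score of unstated scale, and the lists also give the deposited −log10 of a q-value, which was converted to q. Chromatin was sheared to 200 to 800 bp, per the labels.

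Positions (ce11, per the labels) were matched to WBcel235 with Ensembl release 115. Of 31805 annotated start codons 99.9% read ATG, and no peak ended beyond a chromosome end. Sequences were read from the RefSeq copy. The 5′ end of a gene is that of its annotated extent. Window assignment and peak matching were checked on simulated peaks. Genes are named by their strongest pooled peak, and in full those with an IDR peak or q under 0.05 and the 3 strongest of each class. Of the further genes of these processes only those with an IDR peak are named, and efn-1 in that list matched no gene. Values of 1 actomyosin gene are not reported here, though it is included in the counts. The genes, lists and patterns were chosen with earlier results of these data known. With 1 group no comparison between groups and no test was made. Alternatives changed the window, the assignment, the thresholds, the lists, the matching distance and small RNA peaks. Python 3.11.15, pandas 2.3.3, numpy 2.4.6, scipy 1.17.1 and matplotlib 3.10.9 were used.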

Additional observations from a re-analysis of the deposited data

How the results depend on the processing

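Of the alternative values, 31 were within 1.5 times the value reported, in either direction, and 16 were not. Among the 31 are those from counting summits within 150 bp of a stronger one once, which left all 251 peaks. No pooled summits in these windows lay that close, so this alternative could not move a value. Overlapping peaks with summits farther apart were counted separately throughout. Counting 1 kb upstream to 500 bp downstream of the 5′ end gave 3 genes with a pooled peak of q under 0.05 and 31 peaks. From gene start to gene end it was 4 genes, with 0 IDR genes, since both IDR peaks lie upstream. Giving each summit to the nearest 5′ end left 1 IDR gene and 147 peaks. Keeping only the stronger IDR peaks, or leaving out summits at small RNA genes, each left 1 IDR gene. A q under 0.01 left 4 genes. The 10000 strongest pooled peaks gave 99 peaks, 60.6% found in both replicates, and 2.01, 1.80 and 2.98 peaks per 10 kb in junction, actomyosin and guidance genes. For these changed windows, assignments and thresholds no share over all genes is given. Such counts and densities therefore cannot be set against the background shares reported above. Matching within 50 bp gave 13.9% found in both (12.5% of all peaks), and any overlap of 1 bp gave 50.2% (43.7% of all). With either replicate list in place of the pooled list, 6 to 9 genes had q under 0.05 and the windows held 233 to 234 peaks. No paired analysis was possible because there is 1 group. Depth is unknown, so whether weak peaks would hold at greater depth was not detectable here.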
